A study of Mus musculus with 78 samples.

Results

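Cytosolic ribosomal protein genes encode the proteins that, with ribosomal RNA, build the small (40S) and large (60S) subunits of the ribosome outside mitochondria. They were chosen by name: protein-coding genes named Rpl or Rps with a number, the stalk genes Rplp0, Rplp1 and Rplp2, and Rpsa, without the Rps6k kinases, binding proteins and pseudogenes. This gave 85 of the 54532 genes in the table, 33 of the 40S and 52 of the 60S subunit. Their mRNA was followed in 78 RNA-seq libraries of cerebral arteries from wild-type male C57Bl6 mice. Mice fed ad libitum (AL) or kept on intermittent fasting (IF) for 3 months then received a sham operation or bilateral carotid artery stenosis (BCAS), a narrowing of the carotid arteries that chronically lowers cerebral blood flow. The 4 arms were sham AL, sham IF, BCAS AL and BCAS IF. Each was sampled 1, 7, 14, 21 and 30 days after surgery, with 4 libraries per group except BCAS AL day 1 and sham IF day 7 with 3. Day 7 came from the group labels, since the treatment text did not list it, and neither the mice's age nor the fasting schedule was given in the sources used here. The labels do not say that the libraries of a group came from separate animals, and a p-value here reflects the scatter between libraries, which may be technical.

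Each ribosome needs close to equal amounts of its proteins, and their genes are among the most highly transcribed of a growing cell. Most mammalian ribosomal protein mRNAs start with a 5′ terminal oligopyrimidine (TOP) tract, a cytosine followed by a run of pyrimidines. Through this tract the kinase complex mTORC1 and the RNA-binding protein LARP1 couple translation of the mRNAs to nutrients and growth factors. Translation was not measured here, and the values below are mRNA levels.

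Promoter windows were taken from RefSeq (GRCm38.p6) to see whether the tract stood at the annotated starts. A tract was counted where a C within 5 bases of the start was followed by at least 4 C or T, read on the strand of the gene. It was found for 30 of the 65 members with a window (46.2%), against 5718 of 27025 genes of all kinds (21.2%), and for 6027 of 32851 windows (18.3%). The windows below run from 40 bases before the start through the first 20 transcribed bases and belong to members on which the results turn. Capitals mark the tract.
Rpl38 (chr11:114668540-114668599, plus strand): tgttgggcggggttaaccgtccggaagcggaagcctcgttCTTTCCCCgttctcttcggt
Rps21 (chr2:180257339-180257398, plus strand): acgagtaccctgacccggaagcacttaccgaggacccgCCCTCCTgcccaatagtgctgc
Rpl39 (chrX:37085203-37085262, minus strand): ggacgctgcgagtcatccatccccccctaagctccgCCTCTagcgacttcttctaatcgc
Rpl13a (chr7:45128726-45128785, minus strand): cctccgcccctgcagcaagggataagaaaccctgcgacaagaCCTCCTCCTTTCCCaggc
Rps13 (chr7:116334171-116334230, minus strand): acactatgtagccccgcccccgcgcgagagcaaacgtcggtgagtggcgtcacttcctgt
Rps28 (chr17:33824543-33824602, minus strand): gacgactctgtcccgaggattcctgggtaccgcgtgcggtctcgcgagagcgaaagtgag
Rpl7l1 (chr17:46782637-46782696, minus strand): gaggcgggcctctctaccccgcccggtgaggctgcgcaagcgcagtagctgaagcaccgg
Rpl38, Rps21, Rpl39 and Rpl13a held a tract, of 8, 7, 5 and 14 bases. The tract of Rpl39 began at position −4 from the annotated start, so most of it lay before that start. Rps13, Rps28 and Rpl7l1 held none near the annotated start, and members of both kinds are among the genes called below. Which members count as holding a tract depends on the annotated starts. The members with and without a tract had close medians in the day 7 comparisons given below. Under AL, BCAS minus sham, the median log2 change was 0.31 over the 30 members with a tract and 0.29 over the 32 without.

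Levels are in FPKM (fragments of a gene scaled to its length and to the library's total), so levels can be compared between genes. Of the members, 82 reached 1 FPKM in 3 or more libraries, with a median of 253 FPKM, against 4.22 over all 15707 genes that passed the same filter. The stalk gene Rplp1, whose protein helps recruit elongation factors, had the highest level, with 2767 ± 352 FPKM (SD, n = 78). Rps15 followed with 1279 FPKM, then Rpl36 with 1056, Rps3a1 with 970 and Rpl41, which encodes the smallest of the proteins, with 904. In all, 71 members reached 100 FPKM on average and 17 reached 500. The members together took 2.66% to 5.12% of a library's fragments. The lowest members that passed were Rpl39l with 0.613 FPKM, Rpl24 with 1.52, Rps10 with 1.65, Rpl13a with 14.8 and Rpl7l1 with 17.4. Rpl36al (0.431 FPKM), Rpl3l (0.103 FPKM) and Rpl10l (listed at 0 in all libraries) did not pass and were not tested.

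Several ribosomal protein genes have a paralog, and the main copy was the higher one in each pair on average. The muscle paralog Rpl3l stood at 0.0529% of Rpl3 (200 ± 14.6 FPKM), the testis paralog Rpl39l at 0.416% of Rpl39 (155 ± 25.0 FPKM), and Rpl36al at 0.285% of Rpl36a. Rpl22l1 reached 28.0% of Rpl22, and Rps27l, a p53 target, 26.5% of Rps27. Rpl7l1, a nucleolar relative of Rpl7, reached 5.99%, with a coding sequence only 56.7% identical to it. Rps27 and Rps27rt, an intronless copy, had identical coding sequences of 252 bases, without the stop codon. Rps27rt was listed with 342 ± 115 FPKM and Rps27 with 506 ± 97.8. Their ratio swung from 37.6% to 201.5% between libraries, so how fragments were divided between the 2 identical sequences cannot be told from the values. Their sum varied less (SD 0.29 of log2) than Rps27rt alone (0.44) and close to Rps27 alone (0.31).

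The table also held 296 genes named as pseudogenes of 60 members (the member's name followed by -ps). For Rps10, a 40S protein, 97.7% of the fragments of the gene and its named pseudogenes stood under the pseudogenes. The share was 76.8% for Rpl17, 46.2% for Rpl21, 25.5% for Rps12 and 24.4% for Rpl7a. Rpl17, a protein at the nascent chain exit tunnel, ran from 74.6 FPKM in sham AL day 7 replicate 4 to 546 FPKM in sham IF day 21 replicate 2, while its 3 companions in that last group had 120, 221 and 123 FPKM. Summing fragments of a member and its pseudogenes lowered the SD of log2(FPKM + 1) of Rpl17 from 0.56 to 0.16 over the 78 libraries. The sum also raised Pearson's r with the mean of the other members from 0.43 to 0.91 for Rpl17 and from −0.08 to 0.89 for Rps10, whose level became 73.4 FPKM. The value of r rose by over 0.05 in 6 members and fell by over 0.05 in 0. Rps27a, a fusion of ubiquitin with a 40S protein, kept a wide spread (SD 0.50 alone and 0.49 in sum). Rpl13a and Rpl24 overlap another annotated locus on the same strand that was listed at 0 in all libraries, as does Rps10, and how shared fragments were assigned was not given in the sources used here.

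**Figure D1:**
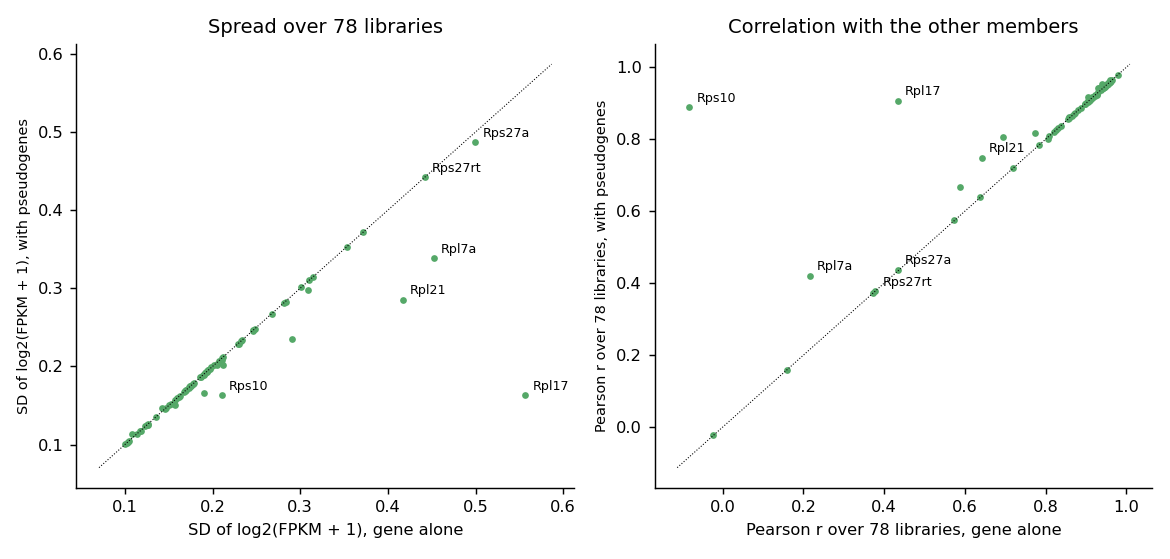
Spread over the 78 libraries (left, SD of log2(FPKM + 1)) and Pearson's r with the mean of the other members (right) for the 82 tested genes, alone on the x axis and summed with their named pseudogenes on the y axis. The dotted line marks equality: Rpl17 fell from 0.56 to 0.16 in SD, and Rps10 rose from −0.08 to 0.89 in r.

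Apart from these genes, the members varied together. The median r of a member with the mean of the others was 0.91 over the 78 libraries, which share depth and composition, and 49 members were above 0.9. Among the highest were Rpl37a (0.979), Rps23 (0.965) and Rpl13 (0.960). The lowest were Rps10 (−0.08), Rpl39l (−0.02), Rpl7l1 (0.16) and Rpl7a (0.22). Among members of at least 10 FPKM the SD of log2(FPKM + 1) was widest in Rpl17 (0.56), Rps27a (0.50), Rpl7a (0.45) and Rps27rt (0.44). It was smallest in Rpl4 (0.10), Rpl15 (0.10), Rpl7l1 (0.10) and Rpl5 (0.10), all of the large subunit. The median SD was 0.19 over these members and 0.15 over the 4536 genes of at least 10 FPKM.

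The libraries held 14601572 to 25944175 fragments, and no pair was identical. The mean log2(FPKM + 1) was 5.76 to 7.45 over the smooth muscle markers and 5.22 to 5.99 over the endothelium markers. It was 1.09 to 2.17 over the neuron, 2.03 to 4.75 over the oligodendrocyte, 3.42 to 4.46 over the astrocyte and 2.04 to 7.57 over the red blood cell markers, so markers of brain and blood cells were detected too. One group stood apart. A member score, the mean log2(FPKM + 1) over the 82 genes, was 7.78, 7.53, 7.23 and 6.90 in sham AL day 7 replicates 1 to 4, against 7.40 to 8.02 in the other 74 libraries. Replicates 3 and 4 lay under all of those, and replicate 1 lay well inside their range. In these 4 libraries the nuclear RNA Malat1 was at 48.2 to 82.2 FPKM, above the 13.4 to 44.2 of all others. Replicate 4 also held 2850 FPKM of Gm10800, against at most 30.4 outside the group. Fragments of genes under 300 bases took 0.322% and 0.282% of replicates 4 and 2 and 0.279% of BCAS AL day 1 replicate 2, against 0.0563% to 0.106% elsewhere. The part of these differences in the results below was not tested. In whole tissue, fewer cells of a type and less RNA per cell cannot be told apart.

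**Figure D2:**
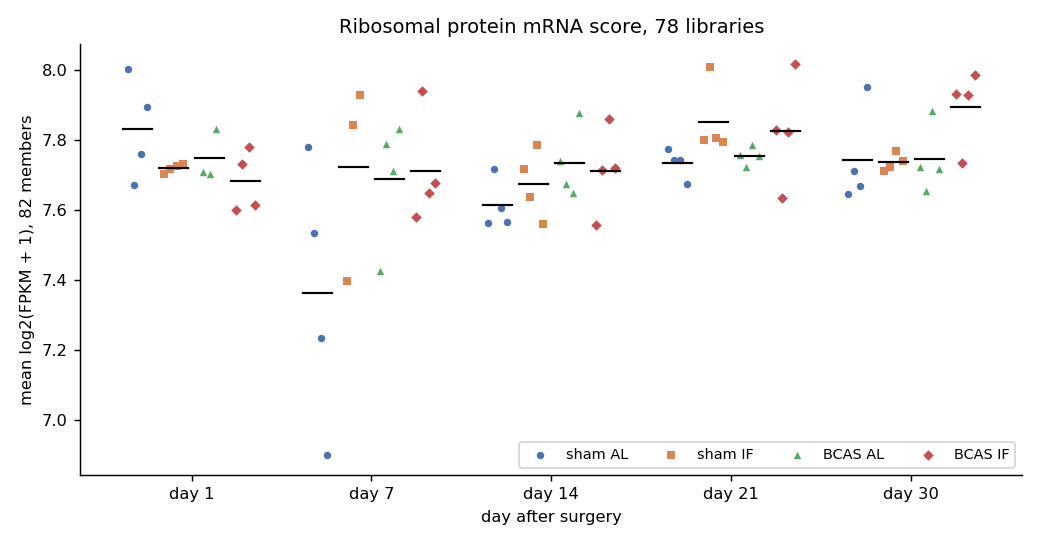
Mean log2(FPKM + 1) over the 82 tested ribosomal protein genes (y axis) in each of the 78 libraries, by day after surgery and arm. Points are libraries and bars are group means: sham AL day 7 spreads from 6.90 to 7.78, and all other libraries lie between 7.40 and 8.02.

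The BCAS comparison addresses whether chronic hypoperfusion alters the arterial transcriptome. With limma, an adjusted p under 0.05 and Benjamini-Hochberg adjustment over all 15707 genes, 14 of the 82 tested members rose on day 7 under AL and none fell. Across all genes 2.63% were called in that comparison (1.64% as higher), and among the members 17.1%. The median log2 change was 0.31, close in the 40S (0.32) and 60S (0.30) subunits, and 80 of 82 members were higher in BCAS. Among them were Rps13, Rps16, Rpl36, Rps28, Rpl41, Rpl10, Rps19, Rpl38, Rpl32, Rps21, Rps29 and Rpl35. In each of the 14 the sham and BCAS libraries overlapped.

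Rps13, a 40S protein (ENSMUSG00000090862), had the smallest p. Its sham AL day 7 libraries held 124, 73.6, 87.2 and 64.6 FPKM and the BCAS AL libraries 102, 143, 132 and 141. The 3 lowest values were all sham, and sham replicate 1 lay inside the BCAS range. The log2 change was 0.59 ± 0.13 (SE; adjusted p = 0.00915, limma). Rpl41 had the largest change of the 14, 0.82 ± 0.21 (adjusted p = 0.0302, limma), from 916, 753, 514 and 157 FPKM in sham to 676, 937, 855 and 999 in BCAS. Sham replicate 4 was the lowest, and sham replicates 1 and 2 lay inside the BCAS range. Rpl36 went from 678 ± 309 to 1005 ± 168 FPKM (SD, n = 4 each), and Rps29, a zinc-binding 40S protein, from 352 ± 178 to 540 ± 132. Rpl38, which is known for its role in translating Hox mRNAs, went from 327 ± 146 to 479 ± 98.4 FPKM. Among the members that encode longer proteins, Rpl3 (log2 change 0.13) and Rpl4 (0.09) did not pass.

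These counts rested on single libraries. Without sham AL day 7 replicate 4 no member passed and the median fell to 0.15, and without BCAS AL day 7 replicate 2 none passed, with a median of 0.28. Without sham AL replicate 1, 64 passed. None passed without the 3 libraries rich in short-gene fragments, or with only the compared groups in the fit, while limma-voom on recovered fragments called 25, all higher. Among markers of other cells, 3 of 10 macrophage and microglia markers rose, 2 of 9 neuron markers and 1 of 7 oligodendrocyte markers fell, and none of the 7 astrocyte, 5 red blood cell, 8 smooth muscle, 8 endothelium, 7 fibroblast and 2 choroid plexus markers tested was called. The summed oligodendrocyte markers ran from 125 to 268 FPKM in sham AL day 7 and from 127 to 134 in BCAS AL day 7, and the summed macrophage markers from 464 to 618 and from 651 to 701. Smooth muscle sums ran from 2153 to 5892 and from 3167 to 5826 FPKM, and no marker of these lists was at 0 in all libraries of a group. Their part in the result was not tested.

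On the other days and under IF, BCAS moved no member past the threshold, with limma or with limma-voom. The background is the share of all genes called at an adjusted p under 0.05. Counts at an unadjusted p under 0.05 use a looser limit, which unchanged genes pass at a rate of about 0.05. They cannot be set against the background. Under AL the background was 0.376% of genes on day 1, 0.337% on day 14, 0% on day 21 and 0.357% on day 30. It was 0.987% for the mean of the 5 days. The medians of the members were −0.09, 0.11, 0.01, 0.01 and 0.07, and 2, 3, 1, 0 and 9 members had an unadjusted p under 0.05. Under IF the medians were −0.03, −0.01, 0.03, −0.03 and 0.16 on days 1, 7, 14, 21 and 30, with 0, 0, 1, 0 and 10 members at an unadjusted p under 0.05. The background there was 0.00637%, 0.153%, 0%, 0% and 0.0891%, and for the mean of days 0.758%, with a member median of 0.03 and 0 members at an unadjusted p under 0.05. On day 30 under IF the strongest was Rpl23, an MDM2-binding 60S protein, with 306 ± 14.2 FPKM in BCAS and 255 ± 6.51 in sham (n = 4 each). The groups did not overlap, but the log2 change of 0.26 ± 0.11 had an adjusted p of 0.358 in limma.

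**Figure D3:**
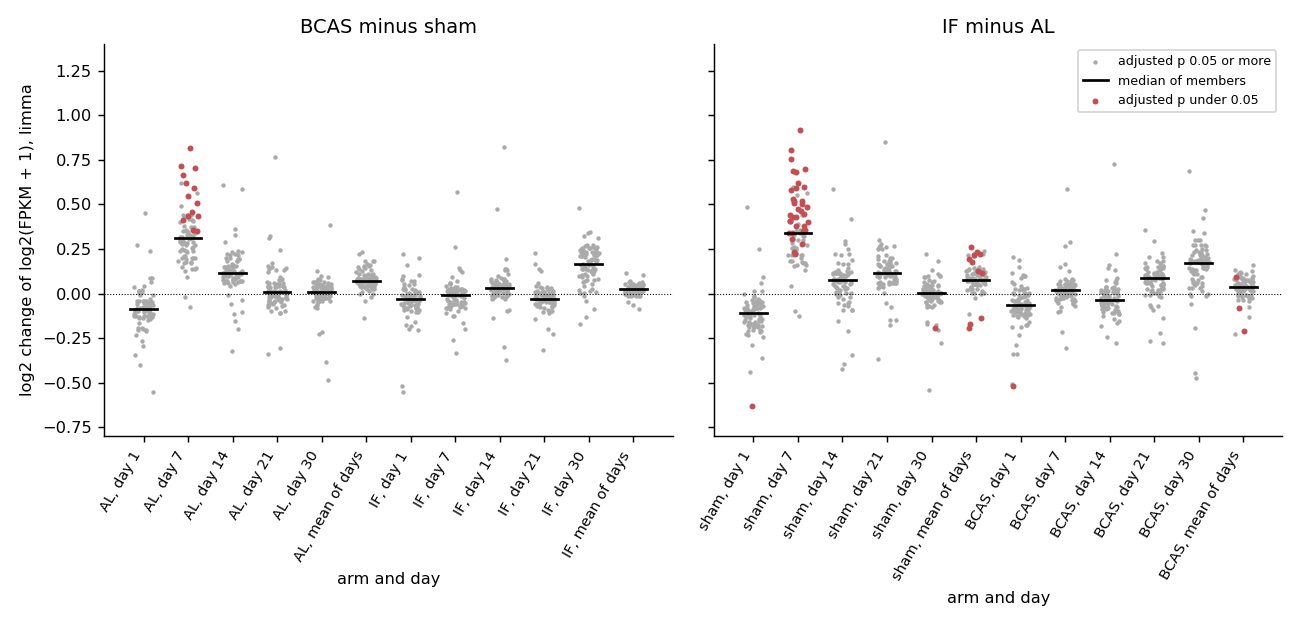
Log2 change of each of the 82 tested members (grey, or red where the adjusted p was under 0.05) and their median (black bar), for BCAS minus sham (left) and IF minus AL (right), by arm and day. The medians stand at 0.31 for BCAS minus sham under AL on day 7 and 0.34 for IF minus AL in sham on day 7, and between −0.11 and 0.17 elsewhere.

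The fasting comparison addresses what the diet changes with and without BCAS. In sham on day 7, 35 of 82 members rose in IF and none fell, 42.7% against 9.05% of all genes (4.79% as higher), with a median log2 change of 0.34. This comparison and BCAS minus sham under AL on day 7 share the 4 sham AL day 7 libraries, so their likeness is no separate evidence. Side by side, Rps13 differed by 0.59 in BCAS minus sham and 0.60 in IF minus AL, Rps16 by 0.46 and 0.52, Rpl41 by 0.82 and 0.92, and Rpl3 by 0.13 and 0.22. The sham IF day 7 libraries themselves were uneven, with member scores of 7.40, 7.84 and 7.93. For Rpl36 they held 672, 1197 and 1287 FPKM, against 1074, 765, 486 and 388 in sham AL. Replicate 1 of sham IF lay inside the sham AL range and the other two above it. Among the further genes that rose were Rplp1 (2090 ± 627 FPKM in AL, n = 4, and 2924 ± 585 in IF, n = 3), Rpl35 and Rpl11, which also binds MDM2. The count fell to 0 without sham IF replicate 3 and to 2 without sham IF replicate 2 or sham AL replicate 4, and rose to 65 without replicate 1 of either group. It was 0 without the 3 libraries rich in short-gene fragments and 0 with only the compared groups. Of the marker lists, 3 of 10 macrophage and microglia markers rose here and no marker of the other lists was called.

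On day 7 the log2 changes tended to be larger in members with shorter coding sequences. Coding length is not the gene length by which FPKM is scaled. Over the 82 members, whose longest annotated coding sequences in GENCODE M21 ran from 138 (Rpl41) to 1257 bases (Rpl4) without the stop codon, Pearson's r between the log2 change and log2 coding length was −0.63 (Spearman's rho −0.59) for BCAS minus sham under AL. For IF minus AL in sham it was −0.62 (rho −0.57). These are descriptions across genes of the same libraries, with no test. Among the 79 members of at least 10 FPKM, 38 had coding sequences under 453 bases and 41 had 453 bases or more. The mean log2(FPKM + 1) of the shorter minus that of the longer was 0.01 to 0.28 in sham AL day 7. It was 0.12 to 0.44 in the other libraries. When each library was centred on its members, 22 were called for BCAS minus sham under AL on day 7, 11 higher and 11 lower, in place of 14 and 0, and the median over all genes moved by −0.32. The 11 higher relative to the family included Rpl41, Rps29, Rps28, Rpl38 and Rps21, which encode short proteins. The 11 lower included Rpl3, Rpl4, Rpl5, Rpsa, Rps3a1 and Rps4x, which encode longer ones. For IF minus AL in sham, centring gave 14 higher and 16 lower. Centring removes the shared change of the members, so calls in both directions follow from its construction. The split by length restates the relation above and is no separate evidence. Under BCAS minus sham with IF on day 30, r was −0.49 (rho −0.64), and under IF on day 7 it was 0.19.

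**Figure D4:**
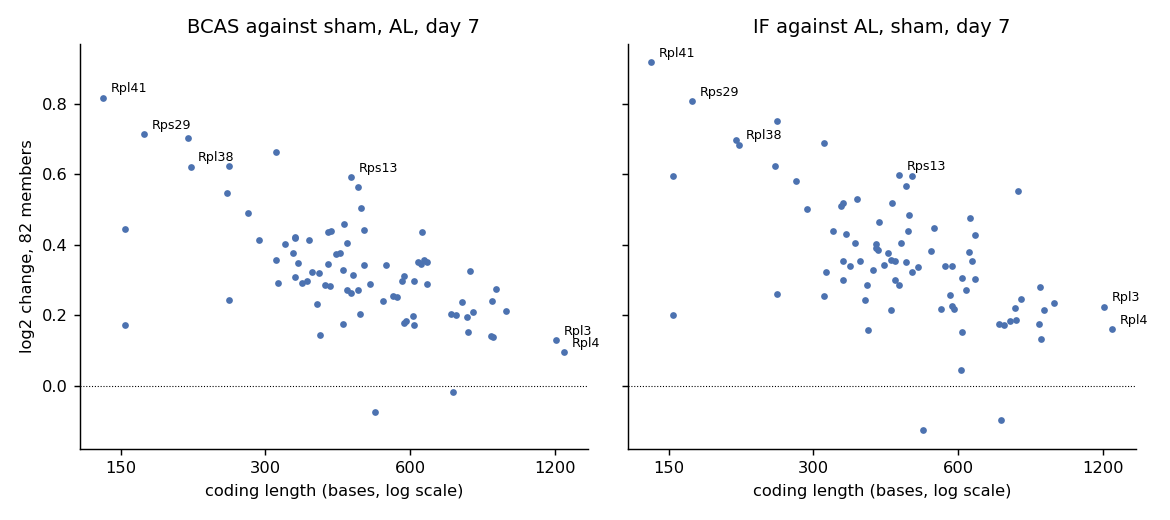
Log2 change of the 82 tested members on day 7 (y axis) against coding length in bases (x axis, log scale), for BCAS minus sham under AL (left) and IF minus AL in sham (right), which share the sham AL day 7 libraries. Rpl41, with the shortest coding sequence, lies at 0.82 and 0.92, and Rpl3 near the long end at 0.13 and 0.22.

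Over the mean of the 5 days, fasting moved 11 of 82 members in sham (13.4%, against 23.7% of all genes, 11.8% as higher and 11.9% as lower), 8 higher and 3 lower, with a median log2 change of 0.08. In BCAS 3 were called (3.66%, against 23.1% of all genes, 11.2% as higher and 11.9% as lower), 1 higher and 2 lower, with a median of 0.04. Rpl3 rose and Rpl13a and Rpl7l1 fell in both. In sham Rpl39, Rps13, Rpl38, Rps29, Rps28, Rpl36 and Rpl11 also rose and Rps10 fell. The sham count rested on day 7: it was 5 (2 higher, 3 lower) without sham IF day 7 replicate 2 or 3 and 35 (32 higher, 3 lower) without sham AL day 7 replicate 1. Centring each library on its members, which removes their shared change, gave 6 higher and 8 lower. Without day 7, Rpl3 (0.09), Rpl7l1 (−0.15), Rpl13a (−0.22) and Rps10 (−0.21) were called in sham and Rpl7l1 (−0.09) and Rpl13a (−0.21) in BCAS. Rps10 lost its fall when its fragments were summed with its pseudogenes (log2 change 0.05, adjusted p = 0.503, limma).

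Rpl13a, a 60S protein known outside the ribosome for the GAIT complex, which silences inflammatory mRNAs, was the only member called for IF minus AL on day 1, in sham and in BCAS. It is annotated on chromosome 7 (ENSMUSG00000074129) and was among the lowest members that passed the filter. As given above, it overlaps another annotated locus on the same strand, and how shared fragments were assigned was not given. Its values may therefore not hold all of its fragments. On day 1 the sham AL libraries held 20.2, 16.5, 17.2 and 24.1 FPKM and the sham IF libraries 13.9, 9.96, 11.7 and 13.3. No IF value reached the lowest AL value, and the log2 change was −0.63 ± 0.12 (SE; adjusted p = 0.00125, limma), where 3.67% of all genes were called (1.85% as lower). In BCAS on day 1 the AL libraries held 13.3, 19.2 and 18.4 FPKM and the IF libraries 10.7, 12.2, 11.5 and 11.3. The groups again did not overlap, with a log2 change of −0.52 ± 0.13 (adjusted p = 0.0133, limma; background 4.37%, of which lower 2.32%). This BCAS call was lost without BCAS AL day 1 replicate 2 or 3 (adjusted p up to 0.135, limma), and both day 1 calls with only the compared groups in the fit (adjusted p = 0.110 and 0.0710, limma). On day 14 in sham, AL held 13.5 to 16.4 FPKM and IF 11.1 to 12.5, a change of −0.34 that did not pass (adjusted p = 0.0968, limma).

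The Rpl13a difference was not seen on all days. In sham IF was lower on 3 of 5 days and higher on day 7 (log2 change 0.04) and day 21, where IF held 17.6 ± 0.401 FPKM and AL 14.7 ± 1.47 (n = 4 each). In BCAS IF was lower on all 5 days, by as little as 0.01 on the log2 scale. Over the 5 days the change was −0.17 ± 0.056 in sham (adjusted p = 0.0210) and −0.21 ± 0.056 in BCAS (adjusted p = 0.00377, limma), and both calls stood without any single library. Rpl13a was also the only member whose level differed among days in the 2 IF arms (adjusted p = 0.0306 in sham IF and 0.0207 in BCAS IF, limma F test). In sham IF it held 12.2, 13.3, 11.7, 17.6 and 13.6 FPKM on days 1, 7, 14, 21 and 30, and in BCAS IF 11.4, 12.7, 13.2, 16.3 and 16.0. Day 21 held the highest mean in both arms, and the call in sham IF was lost without any 1 of the 4 day 21 libraries or day 1 replicate 2, and the call in BCAS IF without day 1 replicate 1 (adjusted p = 0.0533, limma).

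Rpl3, the 60S protein next to the peptidyl transferase centre, moved the other way by a small amount. It held 190 ± 16.0 FPKM in sham AL (n = 20) and 206 ± 12.1 in sham IF (n = 19), a log2 change of 0.12 ± 0.028 (adjusted p = 0.00134, limma). In BCAS it held 194.5 ± 10.02 in AL (n = 19) and 208 ± 11.7 in IF (n = 20), a change of 0.09 ± 0.028 (adjusted p = 0.0100, limma). IF means were higher in 5 of 5 days in both surgeries, by as little as 0.001 (sham) and 0.018 (BCAS) on the log2 scale. The 20 or 19 libraries of the diets overlapped. Relative to the other members Rpl3 did not pass in either surgery (adjusted p = 0.521 and 0.260, limma on centred values), and without day 7 the BCAS call was lost (0.08, adjusted p = 0.0611, limma).

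Rpl7l1, a nucleolar relative of Rpl7 that takes part in ribosome assembly, was lower in IF in 5 of 5 days in both surgeries. It held 18.2 ± 1.08 FPKM in sham AL and 16.5 ± 1.18 in sham IF, a log2 change of −0.14 ± 0.027 (adjusted p = 0.000103, limma), the smallest p of all members. In BCAS it held 17.9 ± 1.099 and 16.96 ± 1.15 FPKM, a change of −0.08 ± 0.027 (adjusted p = 0.0234, limma), which did not pass relative to the other members (−0.11, adjusted p = 0.158, limma on centred values). On day 1 in sham the AL libraries held 19.6, 18.1, 17.1 and 19.1 FPKM and the IF libraries 16.8, 15.9, 16.0 and 16.6, without overlap, and the change of −0.16 did not pass by itself (adjusted p = 0.107, limma). It was the only member called on day 30 in sham (log2 change −0.19, adjusted p = 0.0454, limma; background 4.82%, of which lower 3.12%), where 6 of 8 omissions of 1 library ended the call. The sham call over all days stood without any single library, and the BCAS call was lost without BCAS AL day 21 replicate 4 (adjusted p = 0.0502, limma).

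**Figure D5:**
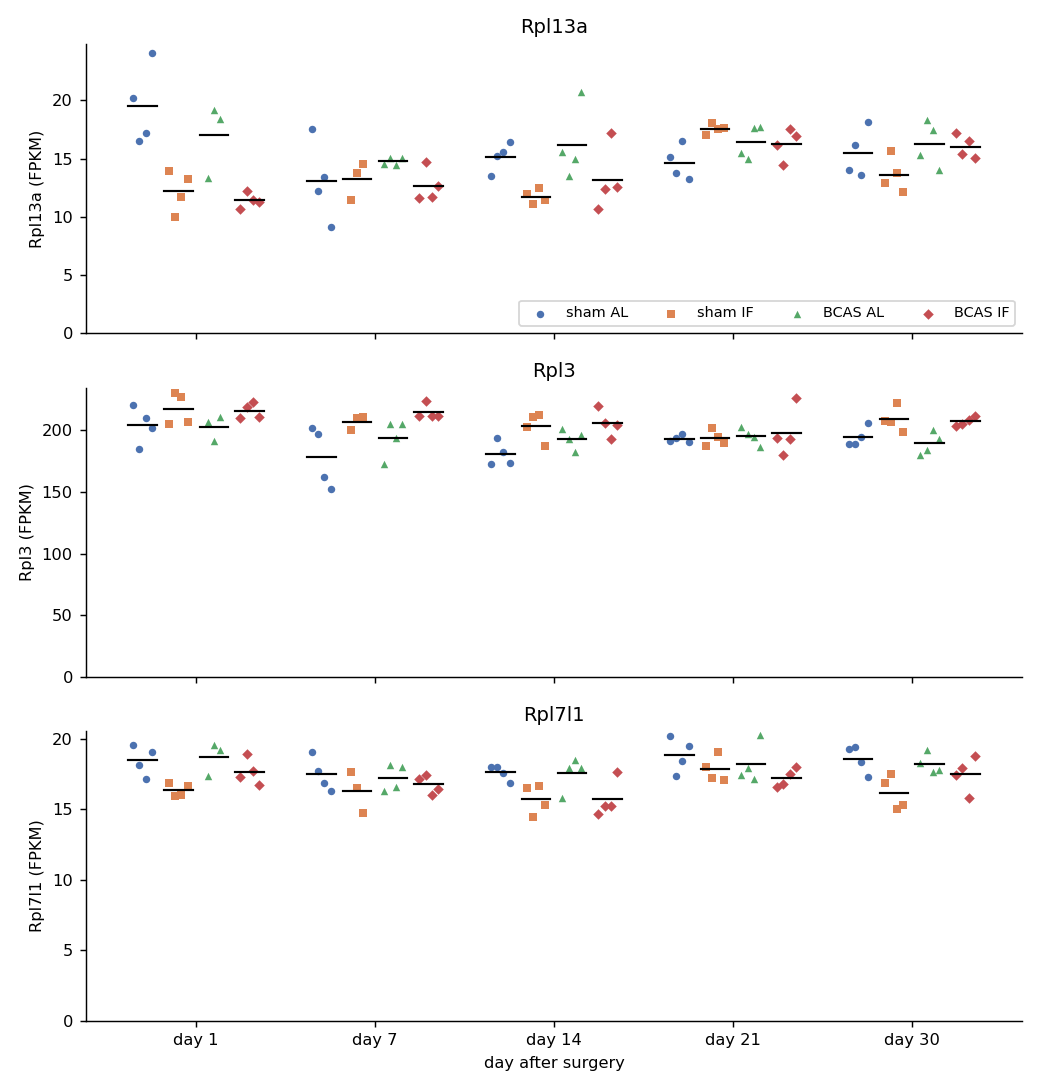
FPKM of Rpl13a, Rpl3 and Rpl7l1 (y axes, from 0) in each of the 78 libraries, by day after surgery and arm. Points are libraries and bars are group means: on day 1 Rpl13a averaged 19.5 FPKM in sham AL and 12.2 in sham IF, and Rpl3 lay higher and Rpl7l1 lower in IF on each day on average.

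On the remaining days the diet comparison called no member with limma or limma-voom. In sham the background was 4.39% on day 14 and 0.382% on day 21, with member medians of 0.08 and 0.12 and 5 and 3 members at an unadjusted p under 0.05. In BCAS it was 2.25%, 5.67%, 0.802% and 1.35% on days 7, 14, 21 and 30, with medians of 0.02, −0.04, 0.09 and 0.17 and 1, 3, 0 and 8 members at an unadjusted p under 0.05. Rps27a had 176 ± 24.6 FPKM in sham IF on day 21 and 96.5 ± 4.29 in sham AL (n = 4 each), without overlap, and an adjusted p of 0.302 in limma.

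Whether the BCAS difference itself differed between diets was tested as an interaction, and no member passed on any day or over their mean, with limma or limma-voom. On day 7 the median interaction was −0.32, and 0.0318% of all genes were called at an adjusted p under 0.05. At the looser limit of an unadjusted p under 0.05 there were 35 members. The strongest was Rps16 with −0.55 ± 0.16 (adjusted p = 0.174, limma). Without sham AL day 7 replicate 1, 18 members were called, and without sham IF day 7 replicate 1, 17. On days 1, 14, 21 and 30 and over the mean of days 0, 2, 1, 0 and 1 members had an unadjusted p under 0.05. The shares of all genes called at an adjusted p under 0.05 were 0%, 0%, 0%, 0% and 0.0127%, which is a stricter limit.

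Across days, 60 of 82 members differed in sham AL (73.2%, against 17.3% of all genes; limma F test), 1 in sham IF (background 1.88%), 0 in BCAS AL (4.48%), where 0 had an unadjusted p under 0.05, and 1 in BCAS IF (5.23%). In sham AL the smallest p belonged to Rps13, which held 146 FPKM on day 1, with libraries from 128 to 169, and 87.4 ± 26.3 on day 7 (n = 4 each). With day 7 left out, 0 of 82 differed among the other days of sham AL. Without the 3 libraries rich in short-gene fragments 4 did, and without sham AL day 7 replicate 4 alone 9 did. Omitting replicate 3 of that group gave 38.

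The other genes of the pathway were read from lists of genes by function. On day 7 under AL, BCAS minus sham, Fau, which encodes the 40S protein eS30 fused to a ubiquitin-like protein, rose by 0.43 (adjusted p = 0.0485), while Rack1 (0.16) did not pass. Of 17 other mRNAs with a TOP tract, 1 rose (the elongation factor Eef1g, 0.20), with a median of 0.02. Of 35 genes of ribosome assembly and RNA polymerase I, 1 rose (Nhp2, a box H/ACA protein, 0.41). Of 83 nuclear-encoded oxidative phosphorylation subunits 6 rose, among them Ndufa3 (0.62) and Cox5b (0.49), with a median of 0.24, and of 77 mitochondrial ribosomal proteins 4 rose, among them Mrps11 (0.50), with a median of 0.16. Of 23 genes of mTORC1 and its regulators 1 fell (Rptor, its scaffold, −0.23), and of 26 initiation and elongation factors 1 fell (Eif4g2, −0.21). The share of all genes called was 2.63%, as above. For IF minus AL in sham on day 7, 27 of 83 oxidative phosphorylation subunits rose (median 0.29) and 6 of 77 mitochondrial ribosomal proteins (median 0.17), where 9.05% of all genes were called and 4.79% as higher. Among genes of the other lists, calls went both ways. Fau (0.54), Hnrnpa1 (0.31), Taf1b (0.52), Eif4ebp1 (0.57) and Eif3l (0.20) were among those higher. Nop2 (−0.47), Bysl (−0.43), Sesn3 (−0.41), Myc (−0.48) and Eif4g2 (−0.23) were among those lower. These list counts use the same uneven sham AL day 7 libraries as the member counts, so they are no separate evidence. The mean log2(FPKM + 1) of the oxidative phosphorylation list was 5.62 to 6.43 there and 6.04 to 6.59 in the other libraries. For the mitochondrial ribosomal proteins it was 3.44 to 4.04 and 3.78 to 4.15.

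Over the mean of days, more members of the assembly and factor lists fell than rose under fasting, while 11.8% of all genes rose and 11.9% fell in sham and 11.2% rose and 11.9% fell in BCAS. Of the 35 assembly and polymerase genes, 3 rose and 9 fell in sham (median −0.06) and 2 rose and 13 fell in BCAS (median −0.10). In sham those that fell included Nop2, an rRNA methyltransferase (−0.29 ± 0.046), and Bysl, a 40S assembly factor (−0.27 ± 0.043). In BCAS Nolc1, a nucleolar chaperone, fell (−0.24 ± 0.030), and nucleolin (Ncl) rose by 0.14 ± 0.019. Of 26 initiation and elongation factors, 1 rose and 10 fell in sham and 0 rose and 9 fell in BCAS, with Eif2s1, the eIF2 subunit whose phosphorylation halts initiation, at −0.18 and −0.24. Of the 23 mTORC1 genes, 3 rose and 7 fell in sham and 3 rose and 5 fell in BCAS. Eif4ebp2, a repressor of cap-dependent translation, fell by 0.28 in sham and 0.33 in BCAS, and Sesn2, an inhibitor of mTORC1, rose by 0.24 in BCAS. Of 17 other TOP mRNAs, 3 rose and 2 fell in sham and 4 rose and 3 fell in BCAS, among them Hnrnpa1 (0.22 and 0.20), which rose in both. Without day 7 the assembly list had 1 higher and 11 lower in sham and 2 and 9 in BCAS, the factor list 0 and 12 and 0 and 9, and the mTORC1 list 0 and 3 and 1 and 4. Omitting 1 library left 9 to 14 assembly genes lower in sham (14 without sham IF day 7 replicate 1) and 10 to 15 in BCAS.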

How the data were processed

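The authors deposited a table of FPKM per gene for 78 libraries, which was used as deposited. The submitters' processing notes name DESeq 1.10.1 without a role, and the aligner and counter are not given in the sources used here. GENCODE M21 (GRCm38) held 54409 of the gene IDs, 98.3% at the same coordinates. Whole fragments were recovered from the FPKM values (100% whole within 0.05, under 1000 fragments) and used for depth and limma-voom only. Groups came from the labels. The 15707 genes that reached 1 FPKM in 3 or more libraries were tested on log2(FPKM + 1), a scale that understates changes of low genes, with limma 3.58.1 (trend, robust; R 4.3.3, statmod 1.5.0) on 20 group means, with Benjamini-Hochberg adjustment over all genes and a threshold of 0.05. In data simulated for BCAS against sham, AL, day 7, on 15707 genes, 65% of genes changed by 0.5 and 92% of those changed by 1 (log2) were recovered (100 genes each), with 11 false calls among the unchanged genes. Members and gene lists were chosen with earlier results of these data known. Genes are named where they passed the threshold, had the smallest p of a comparison, or stood at the ends of the level, spread or correlation order. Python 3.11.15 with pandas 2.3.3, numpy 2.4.6 and scipy 1.17.1 was used. Alternatives were another pseudocount, no filter, other scalings, limma-voom, only the compared groups and omitted libraries. Sums with pseudogenes and the fit without day 7 were added after seeing the data. Some genes that the naming rule covers are not reported here.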

Additional observations from a re-analysis of the deposited data

Results flagged for a closer look

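Over 5 quantities together, 90 sets of 4 values were looked at, each set holding a quantity in the 4 libraries of a group. In 3 sets a library's gap to its neighbour, divided by the range of the group, was above the 95% limit of Dixon's test. Chance gives about 1 in 20. The member score of sham IF day 21 replicate 2 was 8.01, and its companions had 7.80 to 7.81. Rps13 in the same library was 169 FPKM, against 141 to 144. Rpl3 in BCAS IF day 7 replicate 2 was 224 FPKM, against 211 to 212. The cause was not tested.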

How the results depend on the processing

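No paired analysis was possible because the replicate numbers were given in accession order and the labels share none between groups. Counts are members called of 82. A pseudocount of 0.1 moved no count by over 1.5 times. Without a filter 0 were called for IF minus AL in sham on day 30 and 4 over the mean of days, and with median-of-ratios scaling 0 on day 30. Quantile scaling gave 1 for BCAS minus sham under AL on day 1, for IF minus AL in sham 20 on day 7, 0 on day 30 and 19 over all days, and in BCAS 5 over all days, and across days 33 in sham AL, 2 in sham IF, 1 in BCAS AL and 5 in BCAS IF. Centring on the members gave 22 for BCAS minus sham under AL on day 7, for IF minus AL in sham 30 on day 7, 1 on day 14, 0 on day 30 and 14 over all days, in BCAS 2 on day 1 and 4 over all days, and across days 32 in sham AL and 0 in sham IF. Limma-voom gave 25 for BCAS minus sham under AL on day 7 and 0 for IF minus AL in sham on day 30. Only the compared groups gave 0 for BCAS minus sham under AL on day 7, for IF minus AL in sham 0 on days 1, 7 and 30, 1 on days 14 and 21 and 6 over all days, 0 in BCAS on day 1, and across days 0 in sham AL and 2 in BCAS IF, with fewer samples to estimate the spread. Without the 3 libraries rich in short-gene fragments 0 were called in both day 7 comparisons, 5 for IF minus AL in sham over all days, 0 in BCAS on day 1, and 4 across days in sham AL. Without day 7, 4 were called for IF minus AL in sham over all days and 0 across days in sham AL. Omitting 1 library gave 0 to 64 for BCAS minus sham under AL on day 7, 0 to 65 for IF minus AL in sham on day 7, 0 to 1 on day 30, 5 to 35 over all days, in BCAS 0 to 1 on days 1 and 14 and 2 to 3 over all days, 0 to 18 for the day 7 interaction, and across days 9 to 70 in sham AL and 0 to 1 in each IF arm. Centring turned the sign for IF minus AL in sham on day 7 of Rpl10 (−0.0089), Rplp0 (−0.13), Rpl27a (−0.0074), Rpl3 (−0.14), Rpl10a (−0.0575), Rpl6 (−0.0829), Rpl18 (−0.0220) and Rpl12 (−0.0238), and summing with pseudogenes that of Rps10 over all days in sham (0.0505). The cause was not tested. A library's depth limits low members such as Rpl39l, where 1 FPKM at 1 kb stands for 15.1 to 26.8 fragments.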
